A study of Mus musculus with 12 samples.

Results

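Chemokines and their receptors were followed in NICD1/Akt-driven cholangiocarcinoma (CCA) of the mouse as 47 protein-coding genes, out of 21807 genes listed in the count tables. The genes were chosen by symbol alone: names that begin with Ccl, Cxcl, Ccr or Cxcr and a number, Cx3cl1, Cx3cr1, and the atypical chemokine receptors (Ackr). Of 57 protein-coding genes considered with such a name, 47 had at least 10 counts over all libraries, namely 30 ligands, 13 receptors and 4 atypical receptors. The other 10 had too few reads to be described: Ccl21b, Ccl26 and Ccl27b had 0 counts, and Ccl1, Ccl8, Ccr10, Ccr1l1, Ccr8, Cxcl15 and Cxcr1 had 2 to 8 counts in all. Ccl20 and Cx3cr1 served as the leading genes of the set.

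Chemokines are small secreted proteins that bind to matrix sugars and form gradients, and leukocytes follow these gradients through receptors coupled to inhibitory G proteins. Most inflammatory receptors bind several ligands, whereas a few axes, such as Ccl20 with Ccr6 or Cx3cl1 with Cx3cr1, are close to private. The atypical receptors bind chemokines without G protein signaling, and remove or transport them. In the liver, chemokines made by hepatocytes, bile duct cells, sinusoidal endothelium and Kupffer cells (the resident macrophages) guide monocytes, neutrophils and lymphocytes.

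The RNA was sequenced from 12 liver samples of C57BL/6J mice in 4 groups of 3. NICD1/Akt mice received 10 µg of a plasmid for NICD1 (the intracellular, active domain of Notch1) and 10 µg of a plasmid for myr-AKT (a membrane-bound, active AKT), with the Sleeping Beauty transposase, by hydrodynamic tail vein injection (HTVi). Their tissue, labelled CCA tumor, was taken at 2 weeks (early stage; libraries 33, 34 and 35) or at 3 weeks (advanced stage; libraries 1, 2 and 3). Controls were WT mice of the same strain without injection, assigned to the 2-week (libraries 30, 31 and 32) or the 3-week stage (libraries 10, 11 and 12). The methods describe male mice, injected at 5 weeks of age. HTVi reaches part of the hepatocytes, and no promoter that restricts the transgenes to a cell type is named in the sources used here, so the tissue held transfected and untransfected cells. Separate animals are not stated for the 3 libraries of a group. The p-values therefore speak only of the variation from library to library.

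Total counts were 13136892 to 19594839 per library, of which the 47 genes held 5778 to 17505. Levels are given as CPM (counts scaled to a common library size) after TMM scaling over all libraries, which corrects for differences in RNA composition. The library labelled control 32 at 2 weeks stood apart: its Akt1 level was 381 CPM, against 74.5 to 90.6 CPM in the other 5 controls, and its level of the bile duct and tumor gene Spp1 was 1871 CPM, against 30.1 to 56.4 CPM. It was kept in its labelled group, and calls that change without it are given beside the comparisons that use the 2-week controls. Y-linked Ddx3y RNA went against the description of male mice in 5 of the 12 libraries: it was at 0 CPM in controls 30 and 31 and at 0 to 0.399 CPM in NICD1/Akt libraries at 2 weeks, at 57 CPM in control 32, at 120 to 126 CPM in controls and at 52.4 to 61.2 CPM in 3-week NICD1/Akt livers, so Y-linked RNA differed between the stages and, at 3 weeks, between the groups; its part in the results was not tested. Scaling by library size alone in place of TMM raised log2 fold changes at 3 weeks by a median of 0.71 over all genes, and every direction below is relative to TMM. Log2 fold changes follow with ± their standard error where a single gene was tested, and adjusted p-values are from edgeR unless DESeq2 is named.

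**Figure D1:**
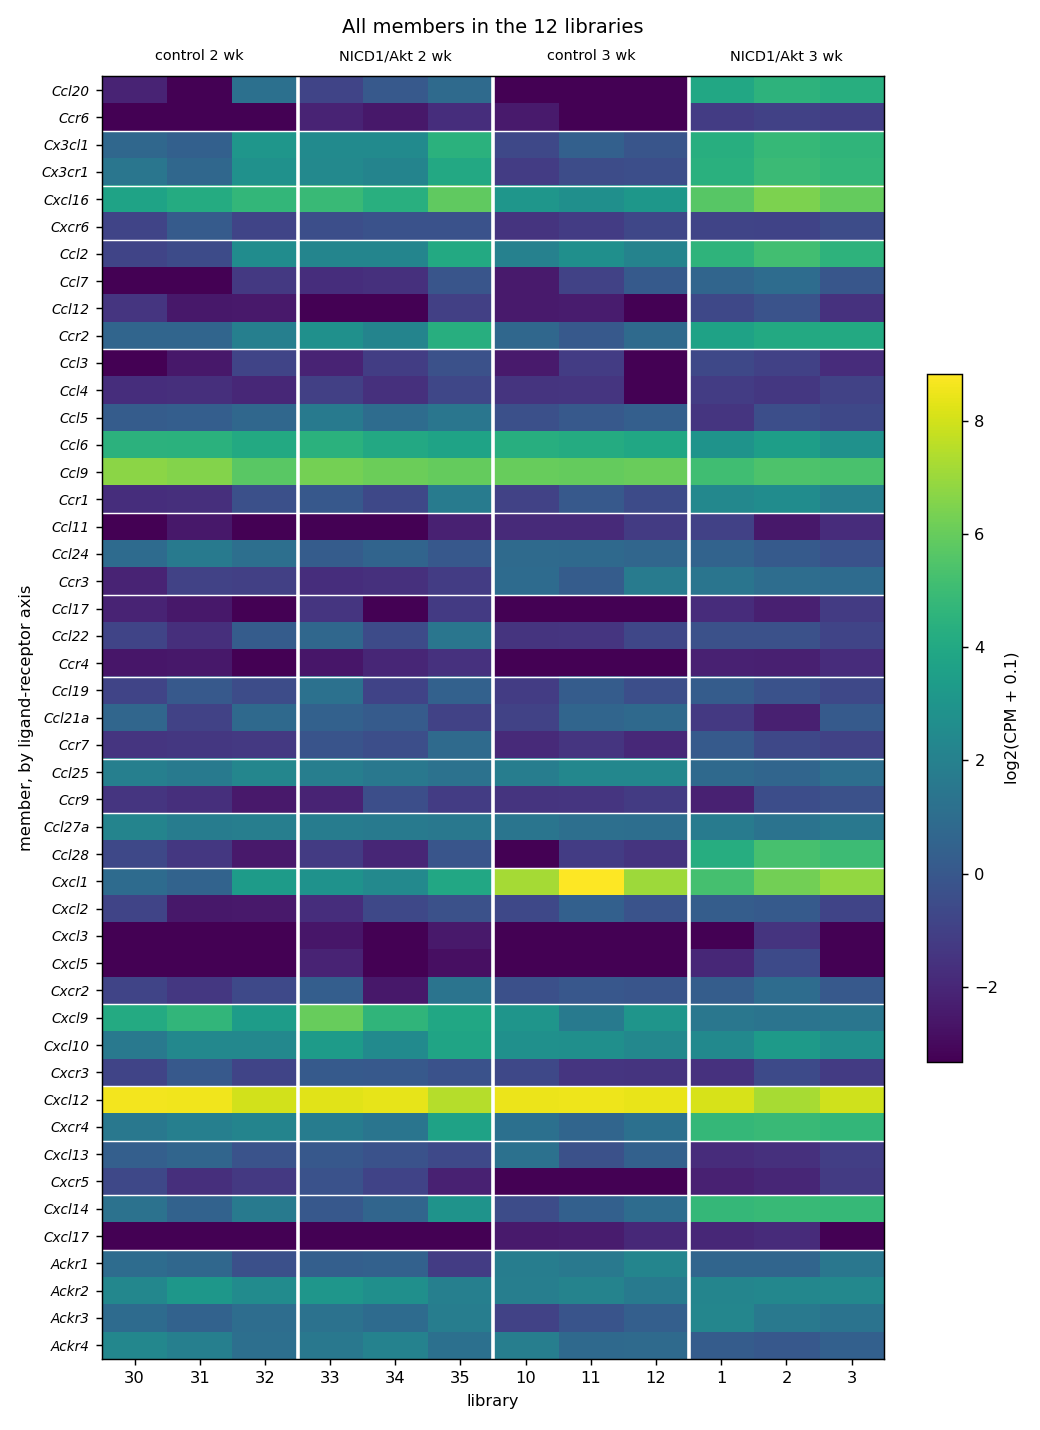
Level of all 47 genes (rows, grouped by ligand-receptor axis) in the 12 libraries (columns, grouped as labelled), as log2(CPM + 0.1) by color. Cxcl12 and Ccl9 are high in every library, Cxcl1 is highest in the 3-week controls, and the block of Ccl20, Ccl28, Cx3cl1, Cx3cr1, Cxcr4 and Cxcl14 is bright in the 3 NICD1/Akt livers at 3 weeks, where library 35 of 2 weeks reaches the level of Cx3cl1.

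At 3 weeks, NICD1/Akt livers differed from their controls in 21 of the 30 genes of the set that had enough reads to be tested: 13 were higher and 8 lower at an adjusted p under 0.05 (edgeR quasi-likelihood test). The 13 higher were Ccl20, Ccl28, Cx3cr1, Cx3cl1, Cxcl14, Cxcr4, Ccr2, Cxcl16, Ccr1, Ccl2, Ackr3, Ccl7 and Ackr2, and the 8 lower were Cxcl1, Ccl25, Cxcl9, Ackr4, Ccl6, Ackr1, Ccl9 and Cxcl12. Most of the transcriptome moved as well: 38.9% of all genes tested were higher and 33.1% lower, against 43.3% and 26.7% of the tested chemokine genes, so the number of calls does not set the family apart. Large changes among the tested genes were in 1 direction. A log2 fold change past 2 with an adjusted p under 0.05 was found upward for 11 of 30 (36.7%; 16.3% of all genes) and downward for 0 (1.18% of all genes). A gene that passes the count filter through the group where it is high had to differ, so these shares describe the tested genes alone. Of the 11, Ccl20 (0 counts per control library), Ccl28 (0 to 4) and Cx3cr1 (4 to 8) passed it through the NICD1/Akt libraries. So did Ccr1 (5 to 11), Ackr3 (5 to 14), Cx3cl1 (6 to 14) and Cxcl14 (7 to 22). The groups did not overlap with NICD1/Akt higher in 13 of 30 (37.7% of all genes) and with NICD1/Akt lower in 10 of 30 (40.1% of all genes). The median log2 fold change was 3.27 over the 6 of 13 receptors that were tested, 0.24 over 20 of 30 ligands and -0.15 over 4 atypical receptors, beside 0.06 over all genes tested. The tested receptors Cx3cr1 and Ccr1 are among the genes that passed the filter through the NICD1/Akt libraries. The receptor median therefore describes the tested receptors alone. With library size alone as the scaling, 16 were higher and 0 lower. That scaling raised the log2 fold changes of all genes by a median of 0.71, and the share of all genes called under it was not calculated.

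**Figure D2:**
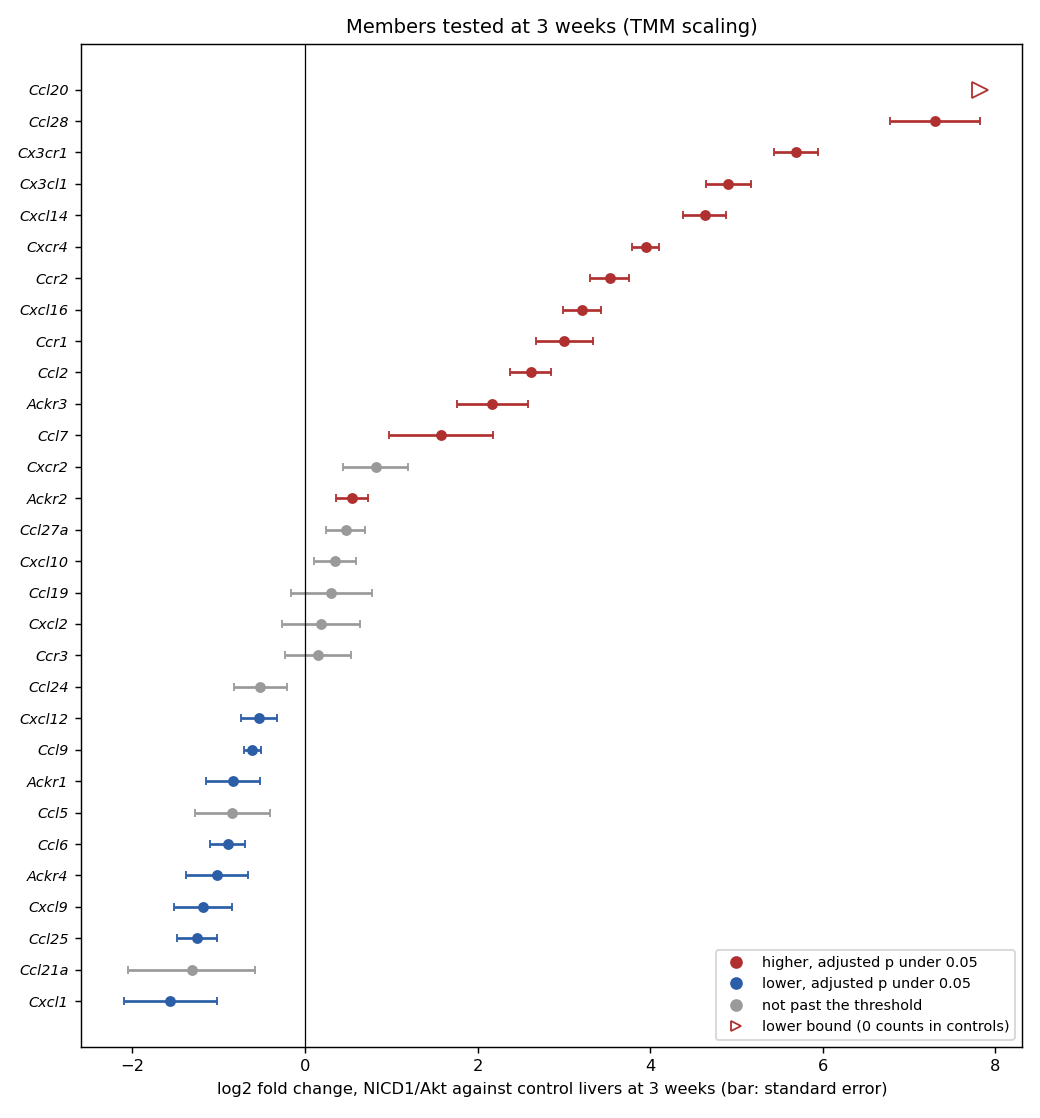
Log2 fold change of the 30 tested genes in NICD1/Akt against control livers at 3 weeks, with the standard error as a bar, and colors for the call. The arrow for Ccl20 is a lower bound, since its controls had 0 counts. The higher genes reach far beyond the lower ones, which lie between -1.56 and -0.53 and are no longer called, 8 of 8, when libraries are scaled by size alone.

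Ccl20, a ligand that draws Ccr6-bearing dendritic cells, B cells and T cells, was the extreme of the set. It had 15.4, 23.1 and 19.6 CPM in 3-week NICD1/Akt livers and 0 counts in each of the 3 controls. Its level was at least 226-fold higher, taking a floor of 3 counts over the control group (adjusted p = 6.78e-06, edgeR). At 2 weeks it had 0.465, 0.960 and 1.73 CPM in NICD1/Akt livers and 0.133, 0 and 2.16 CPM in controls, where the groups overlapped and the highest value was that of control 32. Its receptor Ccr6 was under the filter at 3 weeks: 28 counts over the NICD1/Akt livers against 1 over the controls, a ratio of 13.1 with a counting interval of 2.17 to 537. Ccr6 was at 0.341 to 0.407 CPM in 3-week NICD1/Akt livers, at 0.0739 to 0.196 CPM at 2 weeks and at 0 CPM in 5 of 6 controls. Without the filter on low counts it was higher at 3 weeks (log2 fold change 3.52 ± 1.00, adjusted p = 0.00811, edgeR).

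The 250 bases upstream of Ccl20 and of the Cx3cl1 and Cx3cr1 genes, which encode a ligand and its receptor and rose together, are shown because the transgene acts through RBPJ, the DNA-binding partner of NICD1, and because Ccl20 is a classical NF-kB gene. They were taken from RefSeq (GRCm38.p6), 5′ to 3′ on the strand of the gene and up to the last base before its start, with matches to the NF-kB consensus or to the RBPJ core (TGGGAA, on either strand) in capitals. The positions are chr1:83116516-83116765 (plus strand) for Ccl20, chr8:94771930-94772179 (plus strand) for Cx3cl1 and chr9:120068297-120068546 (minus strand) for Cx3cr1.
Ccl20: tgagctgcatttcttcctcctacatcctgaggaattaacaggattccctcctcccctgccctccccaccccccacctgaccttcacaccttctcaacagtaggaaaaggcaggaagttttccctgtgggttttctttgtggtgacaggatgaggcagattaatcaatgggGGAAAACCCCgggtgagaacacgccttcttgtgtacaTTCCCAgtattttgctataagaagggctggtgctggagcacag
Cx3cl1: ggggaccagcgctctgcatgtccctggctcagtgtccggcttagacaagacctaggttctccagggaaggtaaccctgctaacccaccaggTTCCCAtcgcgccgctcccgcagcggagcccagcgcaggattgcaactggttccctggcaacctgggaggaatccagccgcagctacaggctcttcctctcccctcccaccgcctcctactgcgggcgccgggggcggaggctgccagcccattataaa
Cx3cr1: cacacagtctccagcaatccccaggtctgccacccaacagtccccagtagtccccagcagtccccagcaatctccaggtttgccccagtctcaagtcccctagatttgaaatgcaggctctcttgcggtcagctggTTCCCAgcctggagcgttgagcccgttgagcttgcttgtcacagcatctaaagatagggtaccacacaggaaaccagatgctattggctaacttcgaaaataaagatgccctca
In Ccl20 the capitals mark an NF-kB match 80 to 71 bases before the start and an RBPJ core 43 to 38 bases before it, which do not overlap. Cx3cl1 has the core 159 to 154 bases and Cx3cr1 114 to 109 bases before the start. The core is short and common: of the 27025 genes with at least 1 upstream window of this length, 24.1% held it in some window, as did 10 of the 36 members with a window (27.8%) and 3 of the 10 higher members with a window (30%), which are the 3 shown. The NF-kB consensus was found for 4.46% of all these genes and for 9 of 36 members (25%), namely Ackr2, Ccl20, Ccl9, Ccr3, Ccr6, Cxcl1, Cxcl10, Cxcl2 and Cxcl3. Among these were 2 of the 10 higher members (20%) and 2 of the 8 lower ones (25%). The AP-1 motif TGANTCA was found for 7.82% of all these genes and for 5 of 36 members (13.9%; Ccl27a, Ccl9, Ccr3, Ccr4 and Cxcl10), and for 0 of the 10 higher ones. NF-kB and RBPJ matches can share bases, and did so in Ccr3 and Ccr6. A match of letters is a description of the window, not a binding site.

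Cx3cr1, the fractalkine receptor of monocytes, tissue macrophages and some lymphocytes, had 21.1, 30.6 and 26.8 CPM in NICD1/Akt livers and 0.345, 0.609 and 0.667 CPM in controls at 3 weeks. The groups were far apart, with a log2 fold change of 5.69 ± 0.26 (adjusted p = 7.36e-07, edgeR). At 2 weeks it had 5.25, 4.43 and 15.9 CPM in NICD1/Akt livers and 2.59, 1.58 and 6.94 CPM in controls. The groups overlapped through control 32 (log2 fold change 1.23 ± 0.71, adjusted p = 0.52, edgeR). Its level in controls was itself lower at 3 than at 2 weeks (log2 difference -2.75), and that call was lost without control 32 (-1.96, adjusted p = 0.0546, edgeR), so the fold at 3 weeks holds both a higher NICD1/Akt level and a lower control level. Cx3cl1, its membrane-bound ligand on epithelium and endothelium, had 19.5, 28.0 and 24.3 CPM against 0.518, 1.22 and 0.833 CPM at 3 weeks (log2 fold change 4.91 ± 0.26, adjusted p = 1.54e-06). At 2 weeks Cx3cl1 had 5.51, 5.47 and 21.4 CPM against 1.59, 1.22 and 8.33 CPM. Library 35 was thus at the 3-week level for the ligand, and control 32 was above the other 2 NICD1/Akt libraries of its stage for both genes.

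Cxcl16, a transmembrane chemokine and scavenger receptor that attracts Cxcr6-bearing T and NKT cells, had 50.9, 87.0 and 62.6 CPM in NICD1/Akt livers and 8.28, 6.62 and 8.5 CPM in controls at 3 weeks. It was higher without overlap (log2 fold change 3.21 ± 0.22, adjusted p = 5.05e-06). Its receptor Cxcr6 was at 0.444 to 0.608 CPM and 0.259 to 0.500 CPM, with overlapping groups, and was under the filter at 3 weeks, so it was not tested. At 2 weeks Cxcl16 was at 29.8, 20.3 and 58.2 CPM against 13.1, 17.8 and 26.6 CPM, and the groups overlapped.

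Among the CC ligands grouped here with Ccr10, Ccl28 rose most. Ccl28 is a mucosal chemokine of secretory epithelia. Ccr10 had 4 counts in all libraries together. Each ligand was placed on 1 axis only, so this grouping does not speak for other receptors of Ccl28. The ligand had 18.6, 39.1 and 32.5 CPM in 3-week NICD1/Akt livers and 0, 0.348 and 0.250 CPM in their controls. The log2 fold change was 7.30 ± 0.52 (adjusted p = 6.69e-06). In the 6 libraries of 2 weeks it stayed between 0.0771 and 0.824 CPM. Library 35, which held Cx3cl1 at its 3-week level, had Ccl28 at 0.824 CPM. Ccl27a, the other ligand of Ccr10, was at 2.41 to 3.18 CPM against 2.00 to 2.5 CPM (log2 fold change 0.47 ± 0.23, adjusted p = 0.0938). It was called with library size alone (1.17, adjusted p = 0.00132). Its near-identical copy, Ccl27b, was assigned 0 counts, and how reads that match both copies were counted is not known.

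Cxcl14, a chemokine of epithelia without an agreed signaling receptor, had 26.9, 29.2 and 28.6 CPM in NICD1/Akt livers and 0.604, 1.22 and 1.83 CPM in controls at 3 weeks. The groups were far apart, with a log2 fold change of 4.63 ± 0.25 (adjusted p = 1.52e-06). At 2 weeks it had 0.930, 1.48 and 7.42 CPM against 2.26, 1.29 and 3.01 CPM, so only library 35 lay above the controls. Cxcl17, the other CXC ligand without an agreed receptor, had 9 counts in NICD1/Akt livers and 4 in controls at 3 weeks and 0 counts at 2 weeks.

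**Figure D3:**
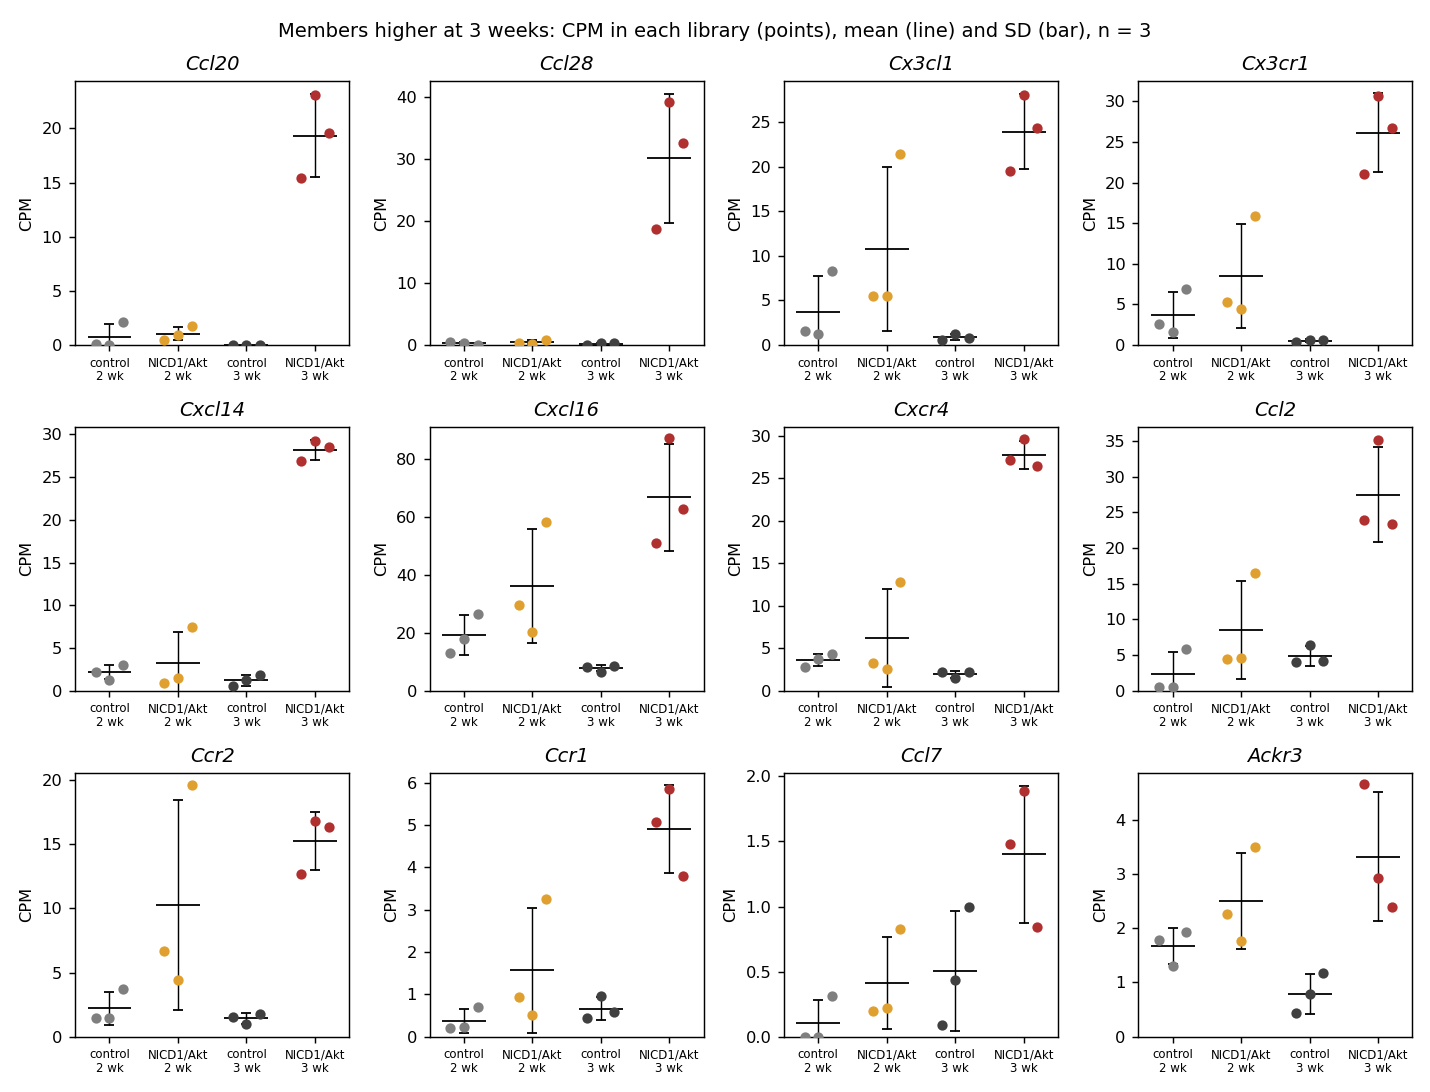
CPM of 12 genes that were higher in NICD1/Akt livers at 3 weeks, in each library (points, in the order 30 to 32, 33 to 35, 10 to 12 and 1 to 3 from left to right) with the group mean (line) and SD (bar, n = 3), on linear axes from 0. The 3-week NICD1/Akt libraries stand above all 6 controls in every panel but Ccl7, where they overlap the 3-week controls, and library 35 is the highest of the 2-week NICD1/Akt libraries in each panel.

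The Ccr2 axis, which brings inflammatory monocytes out of the bone marrow into injured liver, rose on both sides. Ccl2 had 24, 35.2 and 23.3 CPM in NICD1/Akt livers and 3.97, 6.44 and 4.17 CPM in controls at 3 weeks (log2 fold change 2.62 ± 0.24, adjusted p = 2.55e-05). Ccr2 had 12.7, 16.8 and 16.4 CPM against 1.55, 0.958 and 1.75 CPM (log2 fold change 3.53 ± 0.23, adjusted p = 4.32e-06). Neither gene had overlapping groups. Ccl7, a further Ccr2 ligand, had 1.48, 1.89 and 0.842 CPM against 0.0863, 0.435 and 1.00 CPM; its groups overlapped, and its call (log2 fold change 1.57 ± 0.60, adjusted p = 0.0415) was lost without library 10, 11, 1 or 2. Ccl12, a Ccr2 ligand of the same gene cluster, had 40 counts against 2, a ratio of 9.38 with a counting interval of 2.43 to 80.1.

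At 2 weeks Ccr2 had the lowest unadjusted p of the set (0.0144): 6.71, 4.43 and 19.7 CPM in NICD1/Akt livers against 1.46, 1.44 and 3.70 CPM in controls. These groups did not overlap (log2 fold change 2.25), but the adjusted p missed the threshold as it did for every gene at this stage. Ccl2 at 2 weeks had 4.45, 4.58 and 16.4 CPM against 0.464, 0.575 and 5.86 CPM. The overlap came from control 32, and without it the log2 fold change was 4.05 (unadjusted p = 0.00296, adjusted p = 0.195, edgeR).

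Ccr1, an inflammatory receptor of monocytes, macrophages and T cells, rose, and 0 of the ligands grouped with it here (Ccl3, Ccl4, Ccl5, Ccl6 and Ccl9) was called higher. Each ligand was placed on 1 axis only, and Ccl7, which was called higher, was placed with Ccr2. The 0 is therefore a statement about this grouping, not about every ligand of Ccr1. Ccr1 had 5.08, 5.85 and 3.79 CPM in NICD1/Akt livers and 0.431, 0.958 and 0.583 CPM in controls at 3 weeks (log2 fold change 3.01 ± 0.33, adjusted p = 7.51e-05). The most abundant ligands of the axis were lower under TMM: Ccl9, a ligand of Ccr1 made by macrophages, had 33.9, 43.2 and 40.1 CPM against 64.9, 62.8 and 65.8 CPM (log2 fold change -0.61 ± 0.10, adjusted p = 0.000822), which turned to 0.10 with library size alone as the scaling. Ccl6, its near relative, had 7.47, 11.3 and 7.02 CPM against 19.5, 17.5 and 15.2 CPM (log2 fold change -0.90 ± 0.20, adjusted p = 0.00341), and -0.18 (adjusted p = 0.478) under that scaling. Ccl5, a T cell and NK cell chemokine, had 0.265, 0.666 and 0.514 CPM against 0.690, 0.958 and 1.17 CPM; the groups did not overlap, yet the test did not call it (log2 fold change -0.84, adjusted p = 0.108). Ccl3 and Ccl4 stayed between 0 and 0.706 CPM in all libraries and were under the filter. The NICD1/Akt libraries of Ccl4 lay above their controls without overlap at both stages, at 0.296 to 0.421 CPM against 0 to 0.261 CPM at 3 weeks and 0.222 to 0.510 CPM against 0.154 to 0.216 CPM at 2 weeks, on at most 13 counts per library.

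Markers of monocytes and macrophages moved with Ccr1 and Ccr2, beside 38.9% of all genes tested higher and 33.1% lower at 3 weeks. Of 12 markers tested, 11 were higher and 0 lower at 3 weeks, including Itgam (log2 fold change 2.96) and Lyz2 (2.27), and their summed level was 345 to 522 CPM against 129 to 172 CPM in controls. Markers of Kupffer cells went the other way, with 6 of 7 lower (Clec4f, log2 fold change -1.09) and a summed level of 154 to 172 CPM against 235 to 324 CPM. Of the 12 and 7 markers, 0 were at 0 in all libraries. In bulk tissue, more cells of a type and more RNA per cell cannot be told apart, and the part of either list in the receptor levels was not tested.

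Cxcr4, the receptor of Cxcl12 on leukocytes, endothelium and many tumor cells, had 27.1, 29.6 and 26.5 CPM in NICD1/Akt livers and 2.16, 1.48 and 2.17 CPM in controls at 3 weeks. It had the lowest p of the set (log2 fold change 3.95 ± 0.16, adjusted p = 4.52e-07, edgeR). At 2 weeks it had 3.32, 2.51 and 12.8 CPM against 2.85, 3.74 and 4.32 CPM, with library 35 alone above the controls. Cxcl12, the homeostatic ligand that retains leukocytes in tissue, was abundant everywhere, with 276, 151 and 251 CPM in NICD1/Akt livers and 352, 370 and 339 CPM in controls at 3 weeks. It was lower by a small amount (log2 fold change -0.53 ± 0.21, adjusted p = 0.0455). That call did not hold: the log2 fold change was 0.16 with library size alone as the scaling, and the adjusted p was 0.0501 to 0.0924 without library 10, 11, 12 or 3. Ackr3, the scavenging receptor of Cxcl12, rose with Cxcr4, from 0.431, 0.784 and 1.17 CPM in controls to 4.66, 2.92 and 2.39 CPM (log2 fold change 2.17 ± 0.41, adjusted p = 0.00152).

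The other atypical receptors had smaller log2 fold changes than Ackr3. Ackr1, which displays chemokines on venular endothelium, had 1.48, 1.48 and 2.71 CPM against 3.45, 2.87 and 4.50 CPM at 3 weeks (log2 fold change -0.84 ± 0.32, adjusted p = 0.0399), and -0.14 (adjusted p = 0.703) with library size alone. The Ackr1 call was also lost without library 10, 12, 1 or 2 (adjusted p = 0.0736 to 0.143, edgeR). Ackr4, which removes Ccr7 and Ccr9 ligands, had 1.06, 0.925 and 1.22 CPM against 3.62, 1.65 and 1.75 CPM (log2 fold change -1.02 ± 0.36, adjusted p = 0.0307). Its size rested on control 10, without which it was -0.57 (adjusted p = 0.149), and with library size alone it was -0.32 (adjusted p = 0.433). The Ackr4 call was also lost without library 1, 2 or 3 (adjusted p = 0.0502 to 0.08, edgeR). Ackr2, a scavenger of inflammatory CC chemokines, had 4.59, 4.85 and 5 CPM against 3.54, 4.18 and 3.00 CPM (log2 fold change 0.54 ± 0.19, adjusted p = 0.029). In the 2-week controls it was at 4.91 to 8.41 CPM, and against all 6 controls its fold change turned to -0.052. The Ackr2 call was also lost without library 10, 12, 1, 2 or 3 (adjusted p = 0.0553 to 0.102, edgeR).

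Cxcl1, the main neutrophil chemokine of this set through Cxcr2, had the most negative log2 fold change of the 30 tested genes, and its libraries were uneven. It had 37.7, 76.3 and 116 CPM in NICD1/Akt livers and 147, 455 and 132 CPM in controls at 3 weeks (log2 fold change -1.56 ± 0.54, adjusted p = 0.0277). The groups did not overlap, but 1 control decided the size: without library 11 the log2 fold change was -0.76 (adjusted p = 0.108), without library 1 or 2 the adjusted p was 0.081 or 0.0631, with DESeq2 the adjusted p was 0.0511, and with library size alone the log2 fold change was -0.85 (adjusted p = 0.155). The controls of the stages were far apart in Cxcl1. At 2 weeks controls had 1.79, 1.37 and 10.0 CPM and NICD1/Akt livers 7.11, 5.10 and 15.6 CPM. Controls at 3 weeks were higher than those at 2 weeks by 5.81 on the log2 scale, and the NICD1/Akt livers at 3 weeks stood above every library of 2 weeks while they stood below their own controls. The immediate early gene Egr1, a transcription factor that rises within minutes of stress or handling, moved with it in the controls, at 1018 to 1225 CPM at 3 weeks and 70.0 to 116 CPM at 2 weeks, with 56.7 to 88.3 CPM in 3-week NICD1/Akt livers; its part in the Cxcl1 level was not tested.

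The neighbor Cxcl2, a further Cxcr2 ligand, had 1.10, 0.999 and 0.468 CPM against 0.518, 1.22 and 0.750 CPM at 3 weeks (log2 fold change 0.18, adjusted p = 0.728). In controls Cxcl2 was higher at 3 than at 2 weeks without overlap, but not called (log2 difference 1.93, adjusted p = 0.0628, edgeR). The upstream windows of Cxcl1 and Cxcl2 are shown because they hold the same element, whose part in the levels was not tested. They lie at chr5:90890995-90891244 for Cxcl1 and chr5:90903649-90903898 for Cxcl2, on the plus strand of GRCm38.p6 (RefSeq), with NF-kB matches in capitals.
Cxcl1: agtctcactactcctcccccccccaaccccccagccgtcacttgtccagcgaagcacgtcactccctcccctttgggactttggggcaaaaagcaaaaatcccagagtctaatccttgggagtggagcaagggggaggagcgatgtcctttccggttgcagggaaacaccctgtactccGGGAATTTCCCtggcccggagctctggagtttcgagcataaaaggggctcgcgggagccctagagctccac
Cxcl2: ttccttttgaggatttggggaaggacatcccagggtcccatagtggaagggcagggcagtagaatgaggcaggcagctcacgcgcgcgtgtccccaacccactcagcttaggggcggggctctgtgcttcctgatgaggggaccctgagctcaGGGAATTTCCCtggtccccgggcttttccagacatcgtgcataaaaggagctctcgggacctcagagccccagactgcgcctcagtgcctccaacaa
In each, the run in capitals reads as 2 overlapping matches, offset by 1 base and on opposite strands, 71 to 61 bases before the start of Cxcl1 and 97 to 87 bases before that of Cxcl2. Cxcl3 and Cxcl5, the remaining Cxcr2 ligands, had 7 and 19 counts in NICD1/Akt livers and 0 counts in controls at 3 weeks, at least 1.09-fold and 2.97-fold higher; in each the counts came from 1 or 2 libraries. Cxcr2 had 1.10, 1.85 and 0.935 CPM against 0.690, 0.871 and 0.833 CPM, without overlap but not past the threshold (log2 fold change 0.82, adjusted p = 0.078); with library size alone it was called (1.53, adjusted p = 0.00641). Of 3 neutrophil markers tested, 1 was higher (Csf3r, log2 fold change 1.59), and S100a8 and S100a9 were not called (adjusted p = 0.237 and 0.12, edgeR). The summed level of all 9 was 12 to 18.1 CPM against 7.33 to 9.05 CPM. Csf3r alone had a mean of 9.02 against 3.25 CPM, so it held most of this rise. Retnlg, under the filter, went the other way (mean 0.194 against 0.743 CPM). The part of these markers in the Cxcr2 level was not tested.

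Cxcl9 and Cxcl10, interferon-induced ligands that attract effector T and NK cells through Cxcr3, did not move together. Cxcl9 had 2.77, 2.44 and 2.62 CPM in NICD1/Akt livers and 7.94, 3.13 and 8.08 CPM in controls at 3 weeks, lower without overlap (log2 fold change -1.18 ± 0.34, adjusted p = 0.0123). With library size alone the log2 fold change was -0.48 (adjusted p = 0.22), and without control 12 it was -0.98 (adjusted p = 0.0508). Cxcl10 had 5.31, 9.62 and 6.59 CPM against 6.81, 6.53 and 5 CPM, with overlap (log2 fold change 0.35, adjusted p = 0.232), and was called higher with library size alone (1.07, adjusted p = 0.00564). At 2 weeks neither passed the adjusted threshold. Cxcl9 had 64.9, 25 and 14.8 CPM against 17.2, 25.6 and 10.6 CPM, an overlap with 1 high library, and Cxcl10 had 10.2, 5.62 and 13.5 CPM against 2.92, 4.96 and 4.93 CPM, without overlap (log2 fold change 1.21, unadjusted p = 0.0177). Their receptor Cxcr3 stayed between 0.227 and 0.996 CPM in all libraries. Of 8 interferon gamma response genes tested at 3 weeks, 2 were higher (Ciita, 2.16, and Irf8, 0.33) and 1 lower (Socs1, -1.48), with a summed level of 111 to 120 CPM against 103 to 126 CPM. At 2 weeks the summed level was 174 to 478 CPM against 122 to 197 CPM.

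Ccl25, the gut and thymus chemokine of Ccr9, had 1.71, 1.48 and 1.96 CPM against 3.45, 4.88 and 4.92 CPM at 3 weeks, lower without overlap (log2 fold change -1.25 ± 0.24, adjusted p = 0.00149), and -0.55 (adjusted p = 0.0629) with library size alone. Ccr9 was at 0.0771 to 0.702 CPM in all libraries. The eotaxin receptor Ccr3 had 2.5, 1.96 and 1.82 CPM against 1.81, 1.05 and 3.25 CPM at 3 weeks, with overlap (log2 fold change 0.15, adjusted p = 0.731), whereas all 6 libraries of 2 weeks had 0.133 to 0.431 CPM. Its ligand Ccl24 had 1.36, 0.999 and 0.748 CPM against 1.73, 1.65 and 1.5 CPM at 3 weeks, without overlap but not called (adjusted p = 0.159), and Ccl11 had 17 counts against 8.

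The homeostatic axes of lymphoid tissue were near the limit of detection. Ccr7, the lymph node homing receptor, was at 0.421 to 0.985 CPM against 0.167 to 0.261 CPM at 3 weeks, without overlap, and at 0.665 to 1.77 CPM against 0.265 to 0.308 CPM at 2 weeks, also without overlap; it was under the filter at both stages. Its ligands Ccl19 and Ccl21a were not called at 3 weeks (adjusted p = 0.576 and 0.136). Ccl21a has a near-identical copy, Ccl21b, which was assigned 0 counts, and how reads that match both copies were counted is not known. Cxcl13, the B cell follicle chemokine, was at 0.190 to 0.374 CPM against 0.697 to 2.24 CPM, also under the filter. For its receptor Cxcr5 and for Ccl17 and Ccr4, the controls at 3 weeks had 0 counts and the NICD1/Akt livers 14, 15 and 10 counts, at least 2.19-fold, 2.35-fold and 1.56-fold higher. Ccl22, the other Ccr4 ligand, was at 0.468 to 0.720 CPM against 0.259 to 0.500 CPM. Without the filter on low counts, 6 further genes were called higher at 3 weeks, namely Ccl12, Ccl17, Ccr4, Ccr6, Ccr7 and Cxcr5, and Cxcl13 was called lower. The share of all genes called in that fit was not calculated. Among 4 T cell markers tested, Lck (log2 fold change 1.36) and Foxp3 (2.63) were higher, Cd4 (-0.85) was lower and Cd3e was at 0.00; the summed level of all 10 was 8.59 to 10.2 CPM against 7.33 to 8.71 CPM. Of 7 dendritic cell markers, 5 were tested and 3 were higher, with a summed level of 22.6 to 23.2 CPM against 10.4 to 14.6 CPM. Of the 8 NK and cytotoxic cell markers 0 had enough reads to be tested, and of the 6 B cell and plasma cell markers 1 was tested and higher (Jchain, 1.74). None of these markers was at 0 in all libraries, and their part in the receptor levels was not tested.

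**Figure D4:**
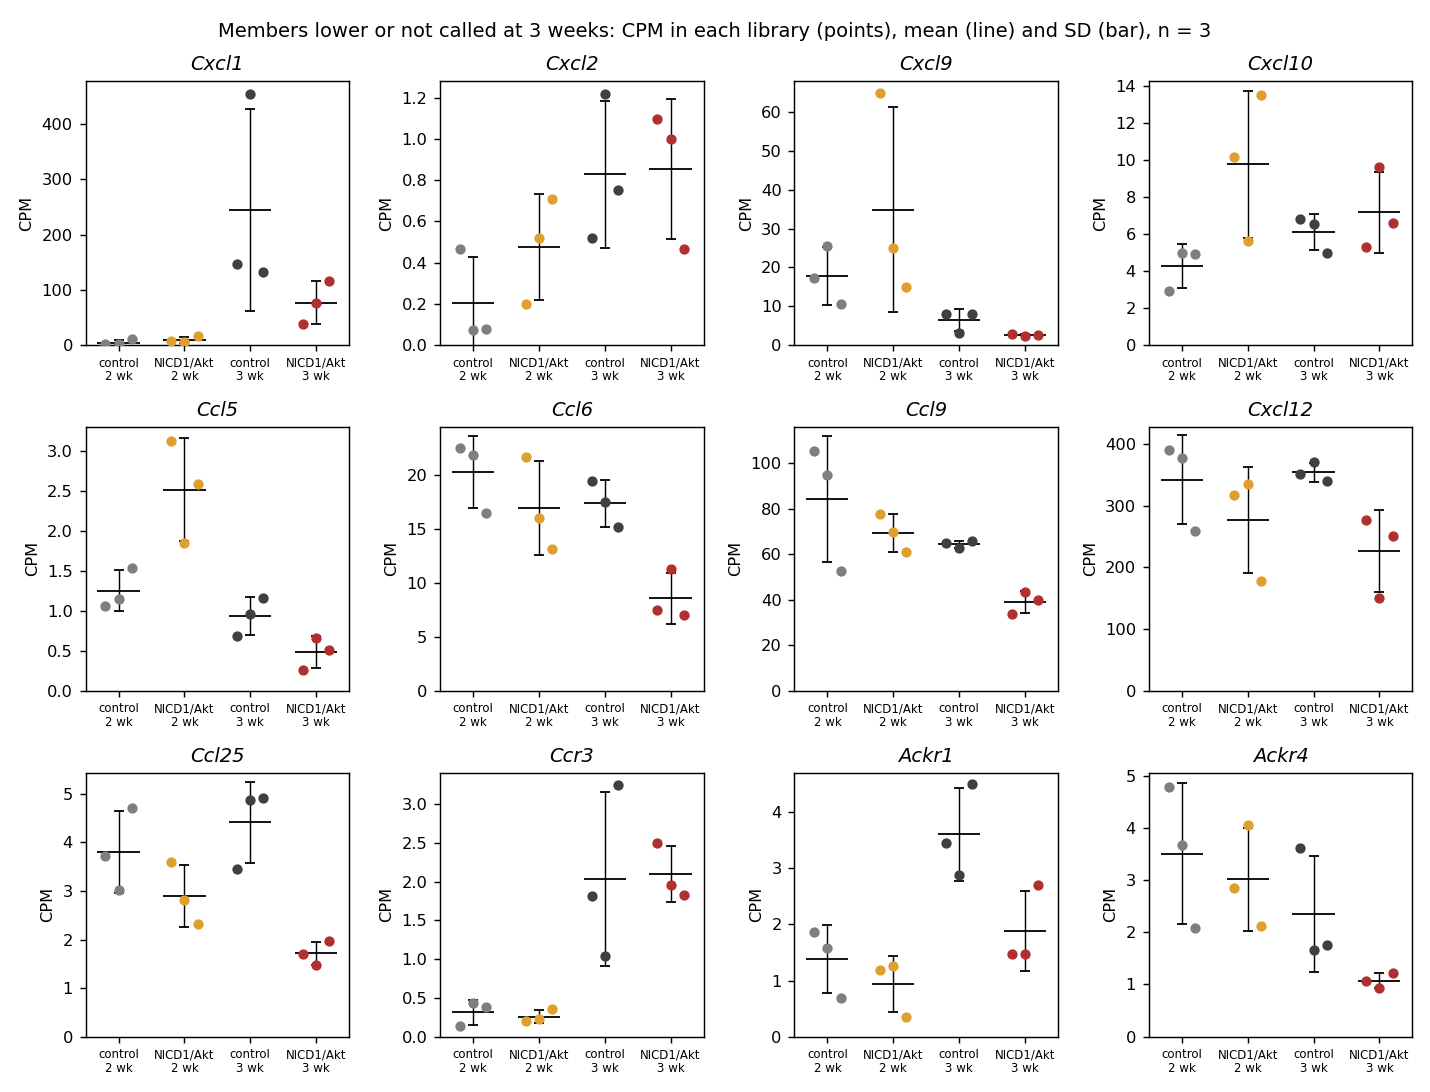
CPM of 12 genes that were lower or not called at 3 weeks, in each library (points, in the order 30 to 32, 33 to 35, 10 to 12 and 1 to 3 from left to right) with the group mean (line) and SD (bar, n = 3), on linear axes from 0. Cxcl1 is near 0 at 2 weeks and reaches 455 CPM in a 3-week control, Cxcl9 reaches 64.9 CPM in a 2-week NICD1/Akt library, and the lower levels at 3 weeks (Ccl6, Ccl9, Ccl25, Ackr1, Ackr4, Cxcl9, Cxcl12 and Cxcl1) are called under TMM with all 6 libraries and are not called with library size alone.

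Corrected for the exon length of each gene, the order of the ligands differed between the groups at 3 weeks. In controls the highest mean levels were those of Cxcl1 at 130.5 CPM per kb, Cxcl12 at 43.3, Ccl9 at 21.2 and Ccl6 at 9.69 CPM per kb. In NICD1/Akt livers Cxcl1 at 40.9 CPM per kb and Cxcl12 at 27.6 were followed by Ccl2 at 24.2, Cxcl16 at 22.1, Cxcl14 at 15.4 and Ccl20 at 13.6 CPM per kb, ahead of Ccl9 at 12.8 CPM per kb. The spread of Cxcl1 (SD 39.2 on a mean of 76.7 CPM, n = 3) is wider than the steps below it. Among receptors, Cxcr4 led in all 4 groups, with 15.3 CPM per kb in NICD1/Akt livers at 3 weeks, followed there by Cx3cr1 at 5.81, Ccr2 at 2.26 and Ccr1 at 1.73 CPM per kb. In the controls of 3 weeks the order was Cxcr4 at 1.07, Ccr3 at 0.622, Cxcr2 at 0.262 and Ccr1 at 0.232 CPM per kb.

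Many chemokine genes lie in clusters. By the gene order in RefSeq, 10 of the 47 genes lie on chromosome 9, and there Ccr1, Ccr3 and Ccr2 stand together: Ccr1 and Ccr2 were higher at 3 weeks, and Ccr3, between them, had a log2 fold change of 0.15. A further 11 lie on chromosome 11. Ccl2 and Ccl7, next to each other, were higher, and in a separate run of that chromosome Ccl9 and Ccl6 were lower under TMM beside Ccl5 (log2 fold change -0.84, not called). On chromosome 8 Cx3cl1 lies between Ccl22 and Ccl17, which were under the filter. Ccl20, Ackr3, Cxcr4 and Ackr1 lie apart from each other on chromosome 1.

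At 2 weeks, 0 of 29 tested genes passed an adjusted p under 0.05 in either direction with edgeR, as did 0 of all 13041 genes (0%), and DESeq2 called 0 members as well. At an unadjusted p under 0.05, 4 of 29 were higher (13.8%; 4.9% of all genes) and 1 lower (3.45%; 3.69% of all genes). The higher ones were Ccr2 (log2 fold change 2.25), Ccr1 (2.13), Cxcl10 (1.21) and Ccl5 (1.02), and the lower one was Ccl24 (-1.06). DESeq2 gave 5 and 1 at the unadjusted threshold, and its share over all genes was not calculated. The groups did not overlap upward in 3 of 29 (7.48% of all genes) and downward in 1 of 29 (8.54% of all genes). The median log2 fold change of the tested members was 0.60, beside 0.01 for all genes. Ccl5 had 3.12, 1.85 and 2.59 CPM in NICD1/Akt livers against 1.06, 1.15 and 1.54 CPM in controls, and Ccr1 had 0.930, 0.517 and 3.26 CPM against 0.199, 0.216 and 0.694 CPM. Ccl24 had 1.06, 1.40 and 0.903 CPM against 1.79, 3.16 and 2.08 CPM.

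The 2-week counts moved with the libraries used. Without control 32, 12 of 31 genes were higher at an unadjusted p under 0.05 (38.7%; 12.3% of all genes in the same fit), namely Ccl2, Ccl20, Ccl22, Ccl5, Ccr1, Ccr2, Ccr7, Cx3cl1, Cx3cr1, Cxcl1, Cxcl10 and Cxcl16, and 2 were lower (6.45%; 5.93% of all genes; Ccl24 and Ccl9); 0 passed the adjusted threshold, the lowest adjusted p being 0.195. Without library 35, 2 of 29 were higher (6.9%; 3.05% of all genes), Ccr2 and Cxcl9. Library 35 was the highest of its group for 20 of 35 tested genes (57.1%, against 40% of all genes) and control 32 for 18 of 35 (51.4%, against 42% of all genes). Levels of Akt1 and Notch1, whose active forms the plasmids carry, ran the same way. Akt1 was at 285, 325 and 925 CPM in libraries 33, 34 and 35 and at 90.6, 89.9 and 381 CPM in controls 30, 31 and 32. Notch1 was at 101, 119 and 202 CPM in those NICD1/Akt libraries and at 48.9, 53.6 and 106 CPM in those controls. Reads of the transgenes and of the mouse genes were not separated. Leaving out library 30 left 1 of 31 higher (1.7% of all genes), library 31 left 3 of 31 (1.57%), library 33 left 2 of 29 (4.5%) and library 34 left 9 of 31 (6.43%).

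The effect of NICD1/Akt differed between the stages for 9 of 35 tested genes: 7 were more positive at 3 than at 2 weeks (20%; 15% of all genes) and 2 more negative (5.71%; 15.8% of all genes). The 7 were Ccl20, Ccl28, Cx3cr1, Cxcl14, Cx3cl1, Cxcr4 and Cxcl16. Cx3cr1 differed by 4.34 ± 0.90 (adjusted p = 0.00863), Cxcl14 by 3.87 ± 0.95 (adjusted p = 0.0154), Cxcr4 by 3.03 ± 0.72 (adjusted p = 0.0144) and Cxcl16 by 2.17 ± 0.53 (adjusted p = 0.0155), all on the log2 scale. Ccl28 differed by 6.54 ± 1.18 (adjusted p = 0.00482) and Cx3cl1 by 3.22 ± 1.09 (adjusted p = 0.0451). For Ccl20 the fitted difference of 10.8 (adjusted p = 0.0136) depends on how 0 counts are fitted and is no bound. The 2 more negative were Cxcl9 (-2.26 ± 0.76, adjusted p = 0.0443) and Ccl5 (-1.97 ± 0.55, adjusted p = 0.024), whose log2 fold changes were 0.97 and 1.02 at 2 weeks and -1.18 and -0.84 at 3 weeks. With library size alone both were over the threshold (adjusted p = 0.0886 and 0.126). The call of Ccl5 was also lost without library 33 or 12 (adjusted p = 0.057 and 0.0588, edgeR). Those of Cx3cl1 and Cxcl9 were lost without each of 9 libraries in turn. Without control 32 the calls of Ccl20 (7.53, adjusted p = 0.0704), Cx3cl1 (1.84, adjusted p = 0.155) and Cxcl9 (-1.97, adjusted p = 0.0856) were lost, and Cxcl1 was called more negative (-4.24, adjusted p = 0.0187), which left 5 of 38 more positive (10.1% of all genes in that fit) and 2 more negative (10.9%). Ccr2, Ccr1 and Ccl2 did not pass (adjusted p = 0.258, 0.584 and 0.706), and their differences of 1.17, 0.73 and 0.56 had standard errors of 0.78, 0.99 and 1.10.

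**Figure D5:**
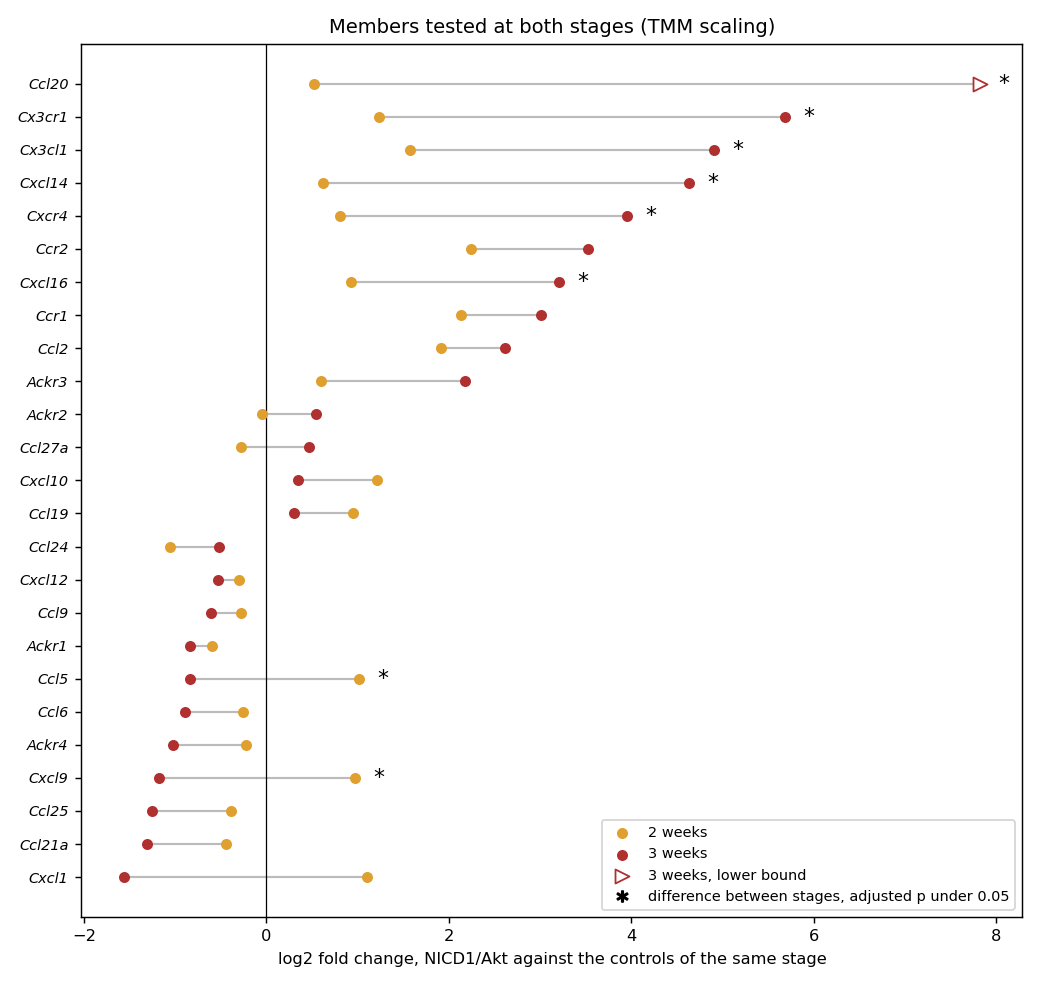
Log2 fold change against the controls of the same stage at 2 weeks (yellow) and 3 weeks (red) for the 25 genes tested at both stages, with an asterisk where the difference between the stages had an adjusted p under 0.05. Cx3cr1 goes from 1.23 to 5.69 and Cxcr4 from 0.80 to 3.95, whereas Ccr2 goes from 2.25 to 3.53 with no call, and Ccl5 and Cxcl9 cross 0, which they no longer pass as calls when libraries are scaled by size alone.

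The stages were also compared within NICD1/Akt livers and within controls, on libraries that the preceding comparison shares. In NICD1/Akt livers, 7 of 35 genes were higher at 3 than at 2 weeks (20%; 11.1% of all genes): Ccl28 by 5.93 on the log2 scale, Ccl20 by 4.13, Cxcl14 by 3.04, Cxcl1 by 3.01, Ccr3 by 2.93, Cxcr4 by 2.12 and Cx3cr1 by 1.59. The 5 lower (14.3%; 17.4% of all genes) were Cxcl9 (-3.74), Ccl5 (-2.38), Ackr4 (-1.49), Ccl6 (-0.98) and Ccl9 (-0.83). Without library 35 the higher genes numbered 14 (22.4% of all genes in that fit), with Ccl2, Ccl7, Ccl12, Ccr1, Ccr2, Cx3cl1 and Cxcl16 added, and the lower ones 8 (25.6%), with Ccl25, Cxcl13 and Cxcr3 added. With library size alone 2 were lower. In controls, 3 were higher at 3 weeks (8.57%; 17.4% of all genes), namely Cxcl1 (5.81), Ccr3 (2.67) and Ackr1 (1.37), and 4 lower (11.4%; 20.4% of all genes), namely Cx3cr1 (-2.75), Cxcl16 (-1.30), Ackr2 (-0.83) and Ccl27a (-0.78). Of these 7 calls, 4 were lost without control 32: Ackr1 (adjusted p = 0.133), Cx3cr1 (0.0546), Cxcl16 (0.0859) and Ackr2 (0.0571). In that fit 4 of 38 were higher (15.2% of all genes) and 3 lower (17.5%): Ccl2 (3.19, adjusted p = 0.00887) and Ccl7 (adjusted p = 0.0431) were newly called higher, and Ccl9 (-0.66, adjusted p = 0.00319) and Cxcl9 (-1.76, adjusted p = 0.0316) lower. Cxcl1 and Ccr3 thus stood higher at 3 weeks in both kinds of liver, and the stage cannot be told apart from the animals used for it.

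The other genes of the pathway are given from lists of related genes. Beside these lists and the marker lists, 38.9% of all genes tested at 3 weeks were higher and 33.1% lower. Of 20 genes of chemokine receptor signaling tested at 3 weeks, 17 were higher and 3 lower (log2 fold changes -1.31 to -0.40). The higher ones included Pik3cd, a leukocyte PI3 kinase subunit (log2 fold change 2.45), Elmo1, which drives Rac during migration (2.37), and Arrb2, which uncouples activated receptors (1.06). Of 11 genes that cut, shed or present chemokines, 7 were higher and 4 lower. Mmp14, a membrane protease that trims chemokines, was higher by 1.67 and Sdc4, a heparan sulfate proteoglycan, lower (-1.93). Hs6st2, which sulfates heparan sulfate, was at 68.3 ± 11.3 CPM against 0.0568 ± 0.0492 CPM (SD, n = 3). A further list joined chemokines with older names and related proteins that are not all chemokines. Of its 6 tested genes, 4 were higher (including Cmtm7, 2.17, and Cklf, 2.08) and 1 lower (Cmtm6, -1.30). The chemokine Pf4 was not called (0.93, adjusted p = 0.214, edgeR). Among 4 tested genes of a list of other chemokine-binding and related receptors, 2 were higher, including the chemerin receptor Cmklr1 (2.12). Of 18 genes of NF-kB signaling and inflammatory cytokines, 8 were higher (including Ltb, 3.60, Relb, 2.73, and Tnf, 4.89). A further 5 were lower (log2 fold changes -1.80 to -0.51). At 2 weeks 0 genes of these lists passed an adjusted p under 0.05.

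Markers of the other cells of the tissue shifted too, beside 38.9% of all genes tested higher and 33.1% lower at 3 weeks. All 8 tested biliary markers were higher at 3 weeks, with a summed level of 3521 to 4160 CPM against 93.5 to 136 CPM, and at 2 weeks the sums were 1196 to 4772 CPM in NICD1/Akt livers and 92.6 to 2051 CPM in controls. Of 10 stellate cell and fibroblast markers 7 were higher, of 10 hepatocyte markers 8 were lower, and of 8 endothelial markers 2 were higher and 3 lower. Of the markers in these 4 lists, 0 were at 0 in all libraries. The part of these markers in the levels of Ccl20, Ccl28, Cx3cl1, Cxcl14 or Cxcl16 was not tested.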

How the data were processed

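Poly(A) RNA of 12 mouse liver samples was sequenced from stranded libraries, and groups were taken from the sample labels. What the authors deposited are unnormalized read counts per gene, with 1 table per stage. By the methods, reads were trimmed, aligned to mm10 with STAR and counted with HTSeq. The processing notes of the submitters list a different build (GRCm39) and counter (Subread 2.0.6, beside STAR 2.7). Since this was not settled, no coordinates were taken from the tables. Gene IDs were matched to GENCODE M21 symbols (21573 of 21807), whose merged exons gave the lengths. The 47 genes and the lists of markers and related genes were chosen with earlier results of these data known.

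The 6 libraries of a stage were fitted together with edgeR 4.0.16 in R 4.3.3 (TMM, filterByExpr defaults, quasi-likelihood test, Benjamini-Hochberg adjustment over all genes tested), and comparisons between stages on all 12. The threshold was an adjusted p under 0.05. Of the 47 genes, 30 were tested at 3 weeks, 29 at 2 weeks and 35 between stages, and 12 in none. CPM use TMM over the 12 libraries, so they can differ slightly from the fitted folds. Where controls had 0 counts, the fold is a bound against 3 counts over the group; with 1 to 3 counts, a 95% counting interval is given. Both cover counting error only.

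Values in every library are given for Ccl20, Cx3cr1 and the 10 called genes with the largest change. They are also given for both sides of each axis with a called gene at 3 weeks and at least 1 CPM in some group. From most lists up to 3 genes are named. Alternatives were DESeq2 1.42.0, other scaling factors, filters and thresholds, all 6 controls, all 12 libraries in 1 fit, and leaving out each library. A sign change counts as a reversal only for a value called in either fit. Scripts were tested on simulated counts with known changes. At 2 weeks 9 of 100 changes of 2-fold and 66 of 100 of 4-fold were recovered, against 68 and 95 at 3 weeks. A missing call at 2 weeks thus does not show that levels were alike. Replicate libraries differed by a chi-square per gene of 4.77 to 130, so 0 pairs were repeats. Upstream windows of 250 bases came from RefSeq (GRCm38.p6), for 36 of the 47 genes. For 1 further gene that the naming rule includes, values are not reported here; it stayed in the fits.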

Additional observations from a re-analysis of the deposited data

Results flagged for a closer look

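The effect of NICD1/Akt differed between 3 and 2 weeks, by a test of the difference itself (edgeR, adjusted p under 0.05), for 9 genes. It was more positive at 3 weeks for Ccl20 (fitted log2 difference 10.81, which depends on how 0 counts are fitted), Ccl28 (6.54), Cx3cr1 (4.34), Cxcl14 (3.87), Cx3cl1 (3.22), Cxcr4 (3.03) and Cxcl16 (2.17), and more negative for Cxcl9 (-2.26) and Ccl5 (-1.97). For Cx3cr1 and Cxcl16 the control level was also lower at 3 than at 2 weeks (log2 difference -2.75 and -1.30), and both of these calls were lost without control 32 (-1.96 and -1.01, adjusted p = 0.0546 and 0.0859, edgeR). The calls of Cx3cl1 and Cxcl9 were lost without each of 9 libraries in turn, and that of Ccl5 without library 33 or 12 (adjusted p = 0.057 and 0.0588, edgeR). Without control 32 the call of Ccl20 was lost as well (adjusted p = 0.0704, edgeR), and Cxcl1 was called more negative (-4.24, adjusted p = 0.0187, edgeR).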

How the results depend on the processing

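Of 13 genes higher at 3 weeks, 11 kept their call under every alternative (Ackr3, Ccl2, Ccl20, Ccl28, Ccr1, Ccr2, Cx3cl1, Cx3cr1, Cxcl14, Cxcl16 and Cxcr4), and Ackr2 and Ccl7 did not; of 8 lower genes 0 did. Against 8 lower, library size alone gave 0, upper quartile factors 5, all 12 libraries in 1 fit 5 and an adjusted p under 0.01 3. Leaving out a library gave 5 to 8 lower and 11 to 14 higher. Fold changes turned for Ackr2 (-0.0522, all 6 controls), Ccl9 (0.10) and Cxcl12 (0.16, both with library size alone). At 2 weeks, the 4 higher at an unadjusted p became 10 with 12 libraries in 1 fit, 9 with all 6 controls and 1 to 12 without a library, and the 1 lower became 0 with library size alone and 0 to 2 without a library; every adjusted count stayed at 0. For the difference between stages, 7 more positive became 2 at an adjusted p under 0.01 (5 to 10 without a library), and 2 more negative became 0 with library size alone, 1 with upper quartile factors and 0 at 0.01 (0 to 5). In NICD1/Akt livers, 7 higher at 3 weeks became 4 at 0.01 (5 to 14), and 5 lower became 2 with library size alone and 2 at 0.01 (2 to 8). In controls, 3 higher ranged from 2 to 4 without a library, and 4 lower became 7 with DESeq2, 7 with upper quartile factors and 0 at 0.01 (1 to 7). Scaling by size alone raises the median fold change of all genes by 0.71 at 3 weeks, 0.61 for the difference and 0.43 in NICD1/Akt livers, and a stricter threshold calls fewer genes by construction; the other causes were not tested. Of 417 values of single genes at 3 weeks, 361 kept direction and call, 44 lost and 9 gained the call and 3 reversed; of 626 for the difference, 592, 24, 10 and 0. Genes below about 1 CPM rest on few counts, and a missing call there does not show that levels were alike. Except where printed above, the share of all genes called under an alternative was not calculated, so these counts do not set the family apart. No paired analysis was possible because the groups share no replicate numbers.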

Other observations

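Cxcl11, the third interferon-induced ligand of Cxcr3, had 352 counts over the 12 libraries but is annotated in GENCODE M21 as a polymorphic pseudogene, and was therefore left out of the 47 genes.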
